A study of Drosophila melanogaster with 3 samples.

Results

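The contacts of 2 baits of different chromosomal position, BaitA next to a centromere and BaitB in the middle of an arm, were compared over chromosome arms 3L, X and 4 of Drosophila melanogaster, which hold none of the study's baits. The members were all bins of 50 kb on these arms with at least 100 probes, 964 of the 2768 such bins of the whole array. They comprised 491 bins on 3L, 446 on X and 27 on 4, together 803074 of 2157868 probes and 48.3 Mb of sequence. In each array the probe values were centred on the median of all probes and divided by the SD of all probes. The difference of a bin was its BaitA value minus its BaitB value, so a positive difference marks a bin that stood higher in the BaitA array. Another 4 bin positions, 3 on X and 1 on 4, had too few probes.

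In circular chromosome conformation capture (4C), chromatin is cross-linked, cut and ligated, and the DNA joined to a chosen bait fragment is amplified by inverse PCR and measured. Contacts of a bait with other chromosomes depend on where the chromosomes lie in the nucleus. In Drosophila nuclei the heterochromatin around the centromeres of different chromosomes gathers in a shared chromocentre, and the arms extend away from it. Chromosome 4, the small dot chromosome, carries heterochromatin marks over most of its length and still holds active genes.

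The study mapped contacts of 3 insulator binding sites in S2-DRSC cells, an established line of embryonic Drosophila cells, with no treatment or mutation named in the labels. BaitA covers 3R, 91997 to 92920, close to the centromere-side end of that arm, BaitB covers 2L, 8485115 to 8485894, and BaitC covers 3R, 384440 to 385252. Every bait had 1 array, with the 4C product cut by DpnII in the Cy5 channel and unligated, DpnII-cut genomic DNA in the Cy3 channel. The deposited values are read here as log2 ratios of the first over the second.

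With 1 array a bait, no difference between baits had a replicate error and no test was run. Spreads given below are SDs over bins or probes of these arrays, neighbouring probes share restriction fragments and are not replicates, and the number of arrays limits the precision. The scaled values are in SDs of each array, where 1 SD was 2.45 log2 units for BaitA, 2.50 for BaitB and 1.50 for BaitC. The most extreme single bins of the bait arms had the sign of their bait. On 3R, which carries BaitA, single bins reached 3.31, and on 2L, which carries BaitB, they reached -2.83. Over whole arms, BaitA was higher in 58.4% of the bins of 3R, no more than the 62.3% of 3L, and in 26.4% of those of 2L. Per the file headers, 1 slide carried the BaitB and later the BaitA hybridisation, another slide carried BaitC, and the part of slide and order in the differences was not tested. The zero of the difference rests on the centring: centred on 3L, X, 4 and 2R, the arms without baits, every difference moved by -0.05. Contrasts between and within arms do not depend on that step and are given first.

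The difference between the arrays was larger on chromosome 4 than on 3L and X, and the means of 3L and X lay close together. The 27 bins of chromosome 4 averaged 0.42 ± 0.25 (SD over bins) with BaitA, 0.20 ± 0.14 with BaitB and 0.36 ± 0.13 with BaitC. Arm 3L averaged 0.05 ± 0.26, -0.01 ± 0.23 and -0.04 ± 0.24 in the same order, and X averaged -0.19 ± 0.19, -0.19 ± 0.19 and 0.17 ± 0.21. Both BaitA and BaitB thus placed chromosome 4 highest and X lowest, whereas BaitC placed X above 3L.

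The difference averaged 0.23 ± 0.27 on chromosome 4, 0.06 ± 0.21 on 3L and 0.00 ± 0.15 on X. Chromosome 4 lay 0.23 above X and 0.17 above 3L, and 3L lay 0.06 above X, all on the scale of the difference. The gap between 4 and X was below the SD over bins of chromosome 4 and above that of X, and the gap between 3L and X was below both their SDs. The bait-free arm 2R averaged 0.05 ± 0.21, close to 3L. BaitA was higher in 24 of 27 bins of chromosome 4 (88.9%), 306 of 491 of 3L (62.3%) and 224 of 446 of X (50.2%). With centring on the bait-free arms these shares became 77.8%, 52.5% and 37.4%, and the mean differences 0.17 on chromosome 4, 0.0069 on 3L and -0.05 on X. The arm-wide excess on 3L and the sign on X thus depended on the centring.

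Along 3L the preference for BaitA lay at the centromere end. The 40 bins of the 2 Mb next to the centromere averaged 0.58 ± 0.25 with BaitA, 0.30 ± 0.27 with BaitB and 0.21 ± 0.23 with BaitC. The other 451 bins averaged 0.00 ± 0.21, -0.04 ± 0.20 and -0.06 ± 0.23. All 3 arrays were thus raised near the centromere, by 0.58 with BaitA, 0.34 with BaitB and 0.27 with BaitC. BaitA exceeded BaitB in 39 of these 40 bins, by 0.28 ± 0.16, against 0.04 ± 0.20 in the rest of the arm. With the other centring BaitA exceeded BaitB in 37 of the 40.

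The preference stayed level over the 2 Mb nearest to the centromere-side end and was smaller beyond, without falling evenly. It averaged 0.32 ± 0.17 in the first 0.25 Mb, 0.24 ± 0.13 from 0.25 to 0.5 Mb, 0.28 ± 0.11 from 0.5 to 1 Mb, 0.25 ± 0.09 from 1 to 1.5 Mb and 0.32 ± 0.26 from 1.5 to 2 Mb. Neighbouring classes over these 2 Mb differed by less than their SD. From 2 to 3 Mb it was 0.20 ± 0.24, from 3 to 4 Mb 0.11 ± 0.24 and from 4 to 6 Mb 0.04 ± 0.17. From 6 to 8 Mb it was 0.10 ± 0.19, from 8 to 10 Mb 0.05 ± 0.21, from 10 to 15 Mb 0.03 ± 0.19 and from 15 to 20 Mb 0.00 ± 0.20. The 4 most proximal windows of 1 Mb averaged between 0.19 and 0.28, while the 21 others ranged from -0.08 at the distal end to 0.16 for the window starting at 16 Mb. The 10 bins of the distal 500 kb averaged -0.09 ± 0.20, and BaitA was higher in 4 of them.

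**Figure D1:**
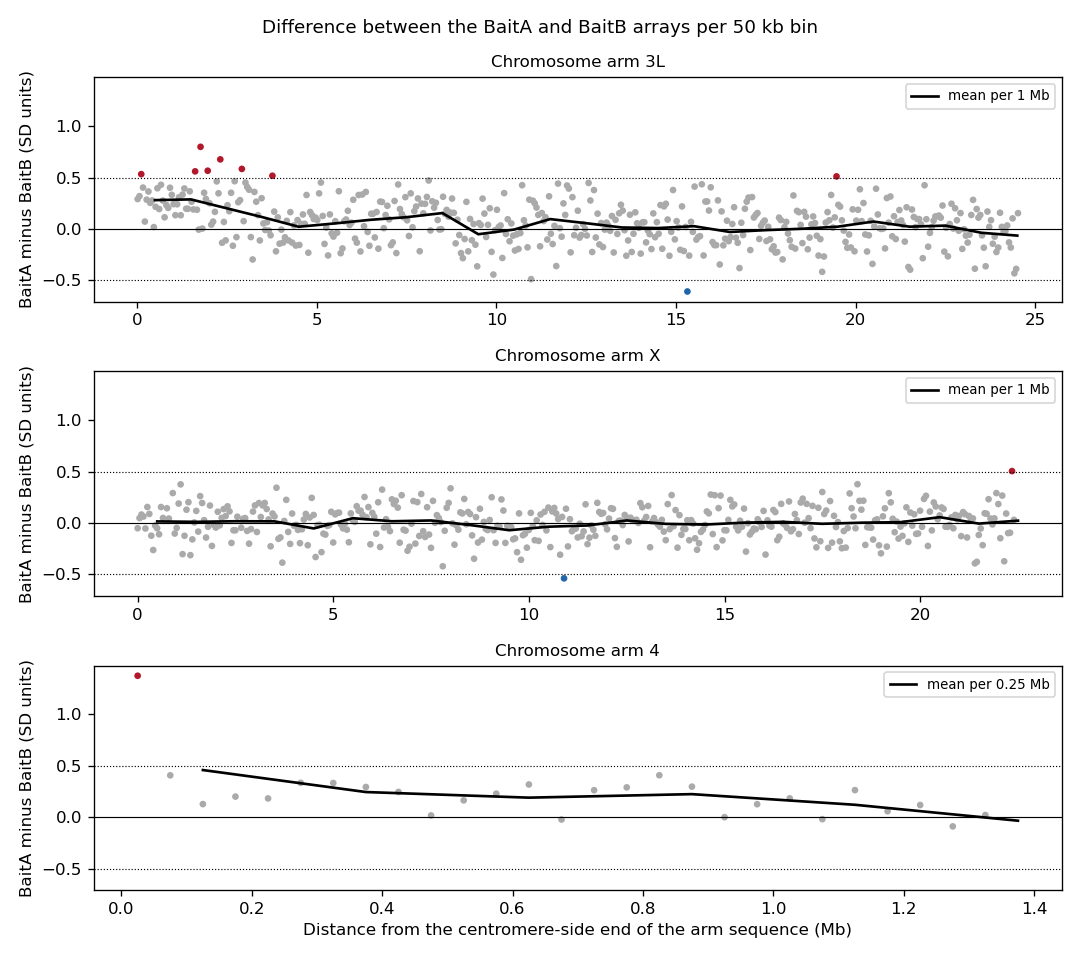
Difference between the BaitA and BaitB arrays (in SDs of an array) for each 50 kb bin of arms 3L, X and 4 against the distance from the centromere-side end of the arm in Mb, with the mean per 1 Mb (per 0.25 Mb on 4) as a line; red and blue points are bins at or past 0.5 and -0.5 (dotted lines). On 3L the line stands near 0.28 next to the centromere and falls unevenly towards 0. On X it stays near 0, and on 4 the first bin stands apart at 1.38.

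The raised level and the preference for BaitA ended at different places on 3L. From 1 to 1.5 Mb off the end, the arrays averaged 0.63 with BaitA, 0.38 with BaitB and 0.30 with BaitC, and from 1.5 to 2 Mb 0.25, -0.07 and -0.08. The step in level thus fell within the same stretch in all 3 arrays. The difference kept its size across it: from 1.75 to 2 Mb BaitA averaged 0.15, BaitB -0.25 and BaitC -0.23, a difference of 0.40 ± 0.30. From 2 to 3 Mb the BaitA array averaged 0.00, at the level of the rest of the arm, while BaitB averaged -0.20 and BaitC -0.15. In that Mb the difference came with lower values of BaitB and BaitC rather than with a raised value of BaitA.

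**Figure D2:**
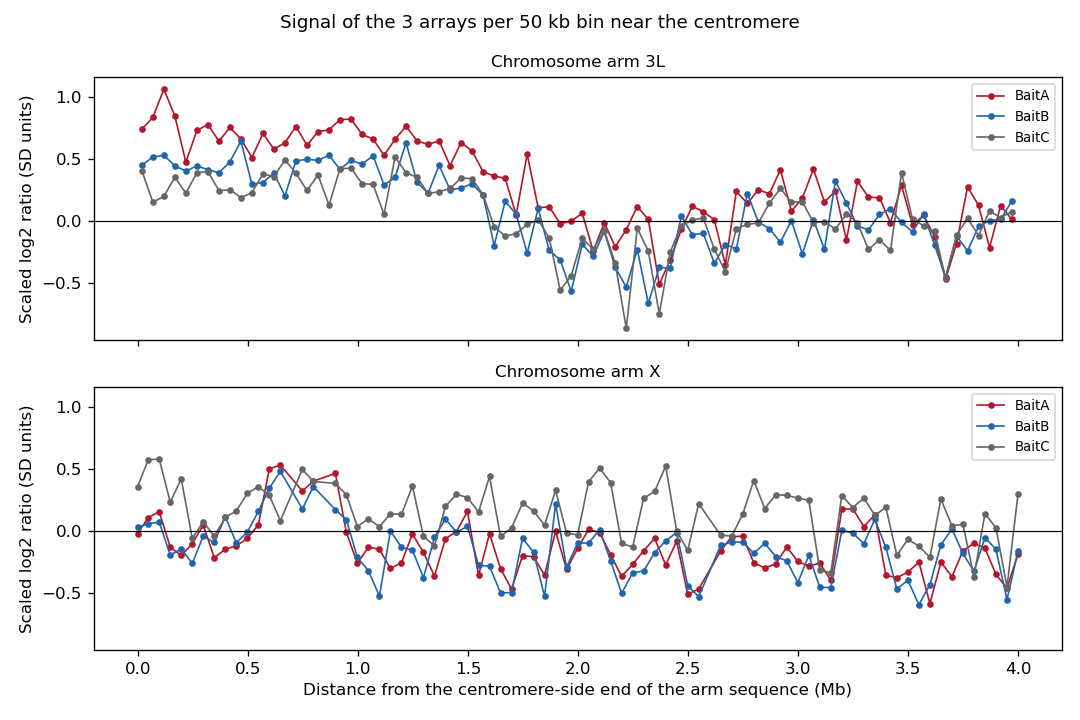
Scaled log2 ratio (in SDs of an array) per 50 kb bin in the BaitA, BaitB and BaitC arrays over the 4 Mb of 3L and X nearest to the centromere-side end. On 3L the 3 arrays drop together near 1.5 Mb and the BaitA line stays above the BaitB line to beyond 2 Mb, while on X the BaitA and BaitB lines overlap and BaitC lies above both over most of the stretch.

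Near the centromere of 3L the rise was spread over many probes. The median probe stood at 0.71 with BaitA, 0.37 with BaitB and 0.19 with BaitC in the proximal 2 Mb. In the rest of the arm it stood at -0.07, -0.12 and -0.09. Of the 24702 probes in the proximal 2 Mb, 75.1% lay above the array median with BaitA, 62.7% with BaitB and 58.5% with BaitC. In the rest of the arm these shares were 48.2%, 47.0% and 46.5%. The deposited peaks of FDR at most 0.05, which pick out narrow maxima, were sparser there: 13.5 peaks a Mb against 18.7 in the rest of the arm for BaitA, and 8.50 against 23.4 for BaitB. The proximal 2 Mb also held fewer probes, 12.4 a kb against 17.3, and the part of probe density in these values was not tested.

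The same zone of X showed no such preference. Its 39 bins averaged -0.06 ± 0.25 with BaitA and -0.07 ± 0.24 with BaitB, and BaitA was higher in 20 of them. The difference was 0.01 ± 0.16 there and 0.00 ± 0.15 in the rest of X. Both arrays were raised over the rest of the arm, by 0.15 and 0.13, so the proximal rise on X was of like size for both baits. The highest stretch lay from 0.5 to 1 Mb, at 0.25 ± 0.29 with BaitA and 0.20 ± 0.21 with BaitB. Over X the means of 23 windows of 1 Mb stayed between -0.08 and 0.06.

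On 2R, the bait-free arm not among the members, the pattern was that of 3L. Its proximal 2 Mb averaged 0.69 with BaitA and 0.45 with BaitB, a difference of 0.24 ± 0.16 with BaitA higher in 37 of 40 bins, against 0.03 ± 0.20 in the rest of the arm. On 2R 5 of 422 bins passed 0.5 towards BaitA (1.18%) and 1 passed -0.5 (0.237%). The contrast between the proximal zone and the rest was 0.24 on 3L, 0.21 on 2R and 0.01 on X. The unassembled heterochromatin assigned to 3L continued the arm: its 50 bins averaged 0.69 with BaitA and 0.44 with BaitB, and BaitA was higher in 49. That of X had 4 bins, with a difference of 0.21 ± 0.26.

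**Figure D3:**
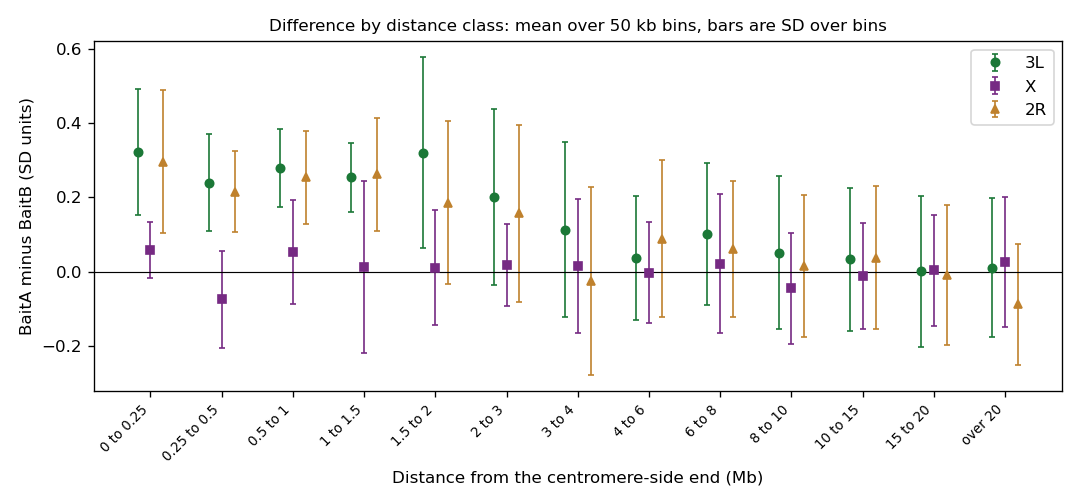
Mean difference between the BaitA and BaitB arrays (in SDs of an array; bars are the SD over bins) by distance class from the centromere-side end in Mb, for 3L, X and 2R. The means of 3L and 2R lie between 0.16 and 0.32 over the first 3 Mb, and those of X between -0.07 and 0.06.

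Genes of the proximal 3L lay on both sides of 0. Of 4530 genes on the 3 arms, 810 were at or above 0.5 towards BaitA (17.9%) and 670 at or below -0.5 towards BaitB (14.8%), with a median difference of 0.04. Of the 76 genes in the proximal 2 Mb of 3L, 53 were higher with BaitA, with a median of 0.24. Of these 76, 21 reached 0.5 (27.6%) and 9 reached -0.5 (11.8%). In the rest of 3L these shares were 21.6% and 16.4%, with a median of 0.07. Of the 118 genes in that zone of X, 52 were higher with BaitA, with a median of -0.02. The genes named in this paragraph and the next were picked after their values were seen, as long genes or genes of known function.

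Genes in the 1.5 Mb nearest to the centromere of 3L differed in how far the baits parted. Snap25 encodes a SNARE protein of synaptic vesicle fusion, and its 2262 probes averaged 0.74 with BaitA, 0.45 with BaitB and 0.32 with BaitC, a difference of 0.29. AGO3, an Argonaute protein of the piRNA pathway, averaged 0.80, 0.52 and 0.42 over 1035 probes, a difference of 0.27. nAChRalpha4, a subunit of the nicotinic acetylcholine receptor, averaged 0.60, -0.08 and 0.28, a difference of 0.68. For these 3 genes BaitA was the highest array. The adherens junction gene alpha-Cat stood at 0.82 with BaitA and 0.80 with BaitB, so nearly alike.

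Small genes between 1.4 and 2 Mb from the end scattered widely. BoYb, a Tudor domain protein of the piRNA pathway, differed by 1.08 and CkIIalpha, the catalytic subunit of casein kinase II, by 0.53, both towards BaitA. Chro, a chromatin protein of polytene interbands, differed by 0.38. Arf1, a GTPase of Golgi transport, differed by -1.17, and EMC4, of the membrane insertion complex of the endoplasmic reticulum, by -1.26. The ribosomal protein gene RpL10 differed by -0.31. Genes past 0.5 in opposite directions thus lay side by side.

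At the threshold of 0.5, 10 of the 964 bins were preferred by BaitA (1.04%) and 2 by BaitB (0.207%), and no pair of adjacent bins passed together. On 3L 8 bins were preferred by BaitA (1.63%) and 1 by BaitB (0.204%). Of the 8, 7 lay within 4 Mb of the centromere-side end and 4 within 2 Mb. Just inside the threshold lay X, 50001 to 100000, at 0.51, and just outside it 3L, 16400001 to 16450000, at 0.47. Towards BaitB these were X, 11500001 to 11550000, at -0.54 and 3L, 13550001 to 13600000, at -0.49.

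The strongest preference for BaitA on 3L was the bin 22750001 to 22800000, 1.77 Mb from the end. It averaged 0.54 with BaitA, -0.26 with BaitB and -0.02 with BaitC, a difference of 0.80. BaitA was higher in 9 of its 9 measured blocks of 5 kb. The bin was picked for its difference and blocks are not replicates, so this is no separate support. The bin overlaps SPoCk, a calcium pump of the secretory pathway, whose 560 probes averaged 0.51 with BaitA and -0.20 with BaitB. It also holds jim, a zinc finger protein, at 0.05 and -0.74, and CG14448, at 0.48 and -0.26. All 3 genes were higher with BaitA, in a bin picked for that direction, although jim stood near the array median there.

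The next bins in order differed in how the preference arose. At 22200001 to 22250000, inside the long gene olf413, BaitA stood at 0.02 and BaitB at -0.66, a difference of 0.68. At 21600001 to 21650000 BaitA stood at 0.42 and BaitB at -0.17, a difference of 0.58. In the first the BaitB value was low, and in the second the BaitA value was also raised. The genes of the second include MED1, a subunit of the Mediator complex, at 0.56 and -0.83, and ORMDL, a regulator of sphingolipid synthesis, at 0.97 and -0.42. S1P, the protease that activates SREBP, differed by 0.62 and Alg11, a mannosyltransferase of N-glycan assembly, by 0.71. TfAP-2, a transcription factor gene that reaches into the same bin, went the other way at -0.24, as did Atox1 at -0.24 and CG11307 at -0.08.

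The remaining BaitA bins on 3L were smaller. The bin 22550001 to 22600000 differed by 0.57, with BaitA at 0.00 and BaitB at -0.56. Its 1 measured gene, CG14459, went the other way at -0.17. The bin 22900001 to 22950000 differed by 0.56, with BaitA at 0.36 and BaitB at -0.20. Of its genes, Mes2 differed by 0.63 and CG12768 by -0.21. The bin 24400001 to 24450000, 119 kb from the end, had the highest BaitA and BaitB levels of these 8 bins on 3L, at 1.06 with BaitA and 0.53 with BaitB. The bin 20750001 to 20800000 averaged 0.28 and -0.24. It holds Spc105R, a kinetochore scaffold, with a difference of 0.88, and the peroxisome biogenesis genes Pex16 and Pex14, with 0.53 and 0.39. Of its 12 measured genes, only CG4042 was lower with BaitA, at -0.06. That bin too was picked for its difference, so the agreement of its genes is no separate support.

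Far from the centromere, the bin 5050001 to 5100000 differed by 0.51, with BaitA at -0.01 and BaitB at -0.52. Its 1 measured gene, CG34047 at its very edge, went against the bin at -0.74. The single BaitB bin on 3L was 9200001 to 9250000, at -0.47 with BaitA, 0.14 with BaitB and -0.30 with BaitC. BaitB was higher in all 10 of its blocks, in a bin that was also picked for its difference. Of its genes CG4477 differed by -1.37, CG4483 by -0.54 and GluRIB, a glutamate receptor subunit, by -0.21, while CG4476 stood at 0.05.

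At a threshold of 0.3, chosen after the sparse result at 0.5, 76 bins were preferred by BaitA (7.88%) and 28 by BaitB (2.9%). On 3L these were 63 (12.8%) and 15 (3.05%), on X 7 (1.57%) and 13 (2.91%), and on 4 6 (22.2%) and 0. Adjacent bins then formed 8 stretches preferred by BaitA on 3L, which summed to 950 kb, and 2 preferred by BaitB. Of the 8, 5 lay within 4 Mb of the centromere-side end and the others at 12.5, 16.4 and 19.4 Mb. In the leading stretches the rule named only genes that pointed the way of their stretch, so that direction is not a result.

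The stretch of the largest summed difference spanned 22200001 to 22350000, with means of 0.02 with BaitA, -0.47 with BaitB and -0.38 with BaitC. It holds Srpk79D, a kinase of splicing proteins, at 0.75 with BaitA and 0.04 with BaitB, and Rich, at 0.13 and -0.38. It also reaches into olf413 and Ten-m, a teneurin of synaptic target choice, whose 2055 probes averaged -0.15 and -0.43. In the long genes all 3 arrays lay below their medians. Its highest BaitA peak, 22268085 to 22268339 at Srpk79D, averaged 2.23 ± 0.39 (SD over 5 probes) with BaitA and 0.67 with BaitB.

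A second stretch, 21400001 to 21550000, averaged 0.26 with BaitA and -0.16 with BaitB. Arv1, known from yeast for sterol transport, stood at 1.30 and 0.09, and Neu2 at 1.08 and -0.18. The endosomal syntaxin Syx7 stood at 0.08 and -0.86 and the proton pump subunit VhaM9.7-b at 0.32 and -0.46. The first pair was raised with BaitA, and the second was low with BaitB. Its highest BaitA peak, 21429112 to 21429541 at Aef1, averaged 2.58 ± 0.22 over 6 probes with BaitA and -0.52 with BaitB.

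Towards the middle of the arm, the stretch 12500001 to 12600000 covers part of the Iroquois complex, whose homeobox genes pattern the body wall and the eye. The bins averaged 0.31 with BaitA, -0.10 with BaitB and -0.05 with BaitC. The homeobox gene ara stood at 0.33, -0.34 and -0.12 and the neighbouring sowah at 0.20, -0.32 and -0.10. The phosphomannomutase gene Pmm2 differed by 0.66 and nst by 0.53. Outside the stretch, the other Iroquois genes caup and mirr differed by 0.44 and 0.22. All 3 homeobox genes were thus higher with BaitA, in decreasing order along the chromosome. Of the 12 genes overlapping the stretch, ver, Gcn5 and eIF2beta went the other way, at -0.78, -0.18 and -0.10. The bin just before the stretch, 12450001 to 12500000, stood at -0.23, towards BaitB. The highest BaitA peak of the stretch, 12526141 to 12526355 at the transferrin gene Tsf2, averaged 2.59 with BaitA and -0.33 with BaitB over 4 probes.

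The stretches preferred by BaitB lay far from the centromere. On 3L, 3000001 to 3100000 averaged -0.07 with BaitA, 0.31 with BaitB and -0.06 with BaitC. It holds the phospholipid scramblase scramb2, at -0.87 with BaitA and 0.53 with BaitB, the peroxiredoxin Prx4, at 0.02 and 0.74, and aly, a regulator of spermatocyte transcription, at 0.13 and 0.68. PAN3, a subunit of an mRNA deadenylase, differed by -0.47. The highest BaitB peak there, 3045035 to 3045289 at scramb2, averaged 2.08 with BaitB and -0.48 with BaitA over 5 probes. The other stretch, 50001 to 150000 near the telomere, averaged -0.24 with BaitA and 0.17 with BaitB. Its measured genes CG13405 and CG12483 differed by only -0.24 and -0.19.

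On X single bins passed 0.5 in both directions, 1 (0.224%) each. The bin 50001 to 100000 near the telomere averaged 0.23 with BaitA, -0.28 with BaitB and 0.58 with BaitC, and holds tyn, a gene of the apical extracellular matrix, at 0.41 and -0.38. The bin 11500001 to 11550000 averaged -0.43 with BaitA, 0.11 with BaitB and 0.24 with BaitC. It holds the receptor phosphatase gene Ptp10D, at -0.29 with BaitA and 0.06 with BaitB over 754 probes, and Met, a receptor of juvenile hormone, at -0.60 and -0.19. The 1 stretch at 0.3, 950001 to 1050000, was preferred by BaitB, at -0.45 with BaitA and -0.07 with BaitB. CG3655 there stood at -0.61 with BaitA and 1.07 with BaitB, and CG14628 at -0.26 and 0.28. The highest BaitB peak of the stretch, 969219 to 969423, averaged 2.68 with BaitB and -0.09 with BaitA over 4 probes.

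On chromosome 4 the bin at the centromere-side end stood apart. The 358 probes of its first 50 kb averaged 1.45 with BaitA, 0.08 with BaitB and 0.47 with BaitC, a difference of 1.38. It was the only bin of chromosome 4 past 0.5 (3.7%), and no bin passed -0.5. With BaitA 99.2% of these probes lay above the array median, against 55.6% with BaitB and 72.6% with BaitC. In the 8 blocks of 5 kb with at least 10 probes, BaitA ranged from 0.72 to 1.76 and BaitB from -0.12 to 0.61, without overlap. The bin was singled out by its difference, so the agreement of its blocks is no separate support. The difference was between 1.58 and 1.76 in the 4 well-covered blocks of the first 25 kb and between 0.40 and 0.68 from 25 to 50 kb. The probe density there was 7.19 a kb, below the 15.4 of the whole chromosome, and the part of repeated sequence in the value was not tested. The 1 measured gene of that bin, CG17923, stood at 1.13 with BaitA and -0.11 with BaitB.

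Without that bin the difference on chromosome 4 was 0.18 ± 0.14, with BaitA higher in 23 of 26 bins. With that bin included, the level with BaitA was highest in the first 0.25 Mb, at 0.61 against 0.15 with BaitB. That rank rested on the first bin, as the other bins of the window stood between 0.24 and 0.57 with BaitA. From 0.25 to 0.5 Mb the arrays averaged 0.46 and 0.22, from 0.5 to 0.75 Mb 0.35 and 0.16, and from 0.75 to 1 Mb 0.36 and 0.14. From 1 to 1.25 Mb they averaged 0.36 and 0.24, and the last 2 bins 0.35 and 0.38. The preference for BaitA thus ran over the proximal 1 Mb, was smaller from 1 to 1.25 Mb, at 0.12, and was -0.03 over the 2 distal bins. BaitC stood at 0.24 to 0.48 in these windows, between BaitA and BaitB in the proximal 1 Mb and above both beyond it.

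**Figure D4:**
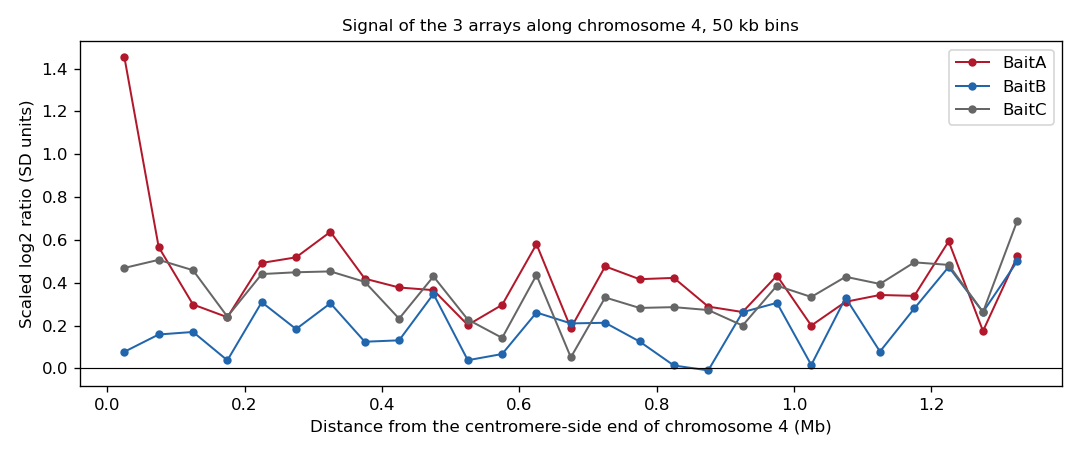
Scaled log2 ratio (in SDs of an array) per 50 kb bin in the BaitA, BaitB and BaitC arrays along chromosome 4, against the distance from its centromere-side end in Mb. The first bin stands at 1.45 with BaitA and 0.08 with BaitB, and over the other bins BaitA lies above BaitB in 23 of 26.

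Of the 77 measured genes of chromosome 4, 55 were higher with BaitA, 13 reached 0.5 (16.9%, near the 17.9% of all genes) and 2 reached -0.5 (2.60%, against 14.8%), with a median difference of 0.19. The largest difference was that of ND-49, a subunit of respiratory complex I, at 1.05 with BaitA and -0.27 with BaitB. RpS3A, a ribosomal protein gene, stood at 1.10 and 0.25, and the neighbouring ci, the transcription factor of the Hedgehog pathway, at 0.86 and 0.09. In the same stretch, the first 100 kb, the semaphorin receptor gene PlexB differed by 0.39 and pan, the TCF factor of the Wingless pathway, by 0.21. All 5 measured genes of the first 100 kb were higher with BaitA. The stretch was picked for that direction, so their agreement is no separate support.

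A second stretch at 0.3 on chromosome 4, 250001 to 350000, averaged 0.58 with BaitA, 0.24 with BaitB and 0.45 with BaitC. The transcription factor gene NfI stood at 0.59 with BaitA and 0.03 with BaitB, and the synaptotagmin gene Syt7 at 0.72 and 0.30. The cell surface gene dpr7 differed by 0.37 and yellow-h by 0.35. The highest BaitA peak of the stretch, 292110 to 292709 at NfI, averaged 2.11 ± 0.33 over 11 probes with BaitA and -0.63 with BaitB. Genes preferred by BaitB were few: CG32006 stood at -0.42 with BaitA and 0.54 with BaitB, the focal adhesion gene Zyx at -0.21 and 0.37, and the lipophorin precursor gene apolpp at -0.07 and 0.30.

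The genes of largest difference on 3L and X were small, with 40 to 72 probes each. On 3L, vnc, an acetyltransferase of nascent proteins, stood at 0.95 with BaitA and -1.05 with BaitB, and the insulin-like peptide gene Ilp3 at 1.17 and -0.67. CG12766, CG32023 and CG6610 followed, with differences of 1.72, 1.66 and 1.64. Towards BaitB, CG32431 differed by -1.76, zetaCOP, of the COPI vesicle coat, by -1.59, CG15012 by -1.53, CG33262 by -1.50 and sina, a ubiquitin ligase of photoreceptor fate, by -1.49.

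On X the extremes were CG14818, at 1.34 with BaitA and -0.86 with BaitB, and CG9784, at -0.75 and 1.10. CG15058, CG32550, CG32827 and CG13362 differed by 1.97, 1.92, 1.87 and 1.76. The mitochondrial ribosomal protein gene mRpL14 differed by -1.71, CG3655 by -1.68, CG4045 by -1.65 and CG32613 by -1.63. The X extremes were as large as those of 3L, although the bins of X varied less. Among the 185 genes of at least 20 kb, which average over more fragments, the median was 0.02. Of these 185, 5 reached 0.5 and 1 reached -0.5, smaller shares than the 17.9% and 14.8% of all genes.

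Gene lists by function mostly had medians near the 0.04 of all genes, and their members spread to both sides. The 35 Polycomb target and homeobox genes had a median of 0.10, with 4 at or above 0.5 (11.4%, against 17.9% of all genes) and 3 at or below -0.5 (8.57%, against 14.8%). Their extremes were eyg, an eye and antenna Pax gene, at 0.34 with BaitA and -0.48 with BaitB, and the proneural gene ac, at -0.36 and 0.71. The 26 cytosolic ribosomal protein genes had a median of 0.04, with 7 (26.9%) and 3 (11.5%) past the thresholds. RpS28b differed by 1.50 and RpS14b by -0.84, so members of 1 complex lay at both extremes. The 21 ecdysone response genes had a median of 0.07, with 3 each way (14.3%), and Eig71Ek at 1.38 and Eig71Ed at -1.09 belong to the same cluster of genes.

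The 49 cuticle protein genes had a median of 0.15, with 15 at or above 0.5 (30.6%, against 17.9% of all genes) and 10 at or below -0.5 (20.4%, against 14.8%). The 47 chemoreceptor genes had a median of 0.16, with 9 (19.1%) and 5 (10.6%). The cuticle extremes were Cpr64Aa at 1.22 and Lcp65Ad at -1.26, and those of the chemoreceptors Gr64c at 1.32 and Gr63a, part of the carbon dioxide receptor, at -1.10. Lcp65Ab1 and Lcp65Ab2 had the same span in the tables and thus the same value, 0.26, and cannot be told apart. The 8 glue genes of the larval salivary gland had a median of 0.15, with 1 (12.5%) and 2 (25.0%), from ng1 at 0.72 to Sgs4 at -0.63. The 16 neuronal genes had a median of 0.08, with 4 (25.0%) and 0, from nAChRbeta1 at 0.79 to the GABA receptor gene Rdl at -0.46. The 8 sarcomere genes had the highest median of the lists over 5 members, 0.30, with 1 each way (12.5%), from the troponin I gene wupA at 0.72 to TpnC73F at -0.95.

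The small lists were read gene by gene. Among 5 heat shock protein genes the median was -0.08, from Hsp22 at 0.66 to Hsc70-3 at -0.44. Of these 5, 1 was at or above 0.5, a share near the 17.9% of all genes. At or below -0.5 there were 0, against 14.8% of all genes. Of the dosage compensation genes 2 were measured, msl-3 at 0.96 and the acetyltransferase gene mof at 0.52. Of the insulator protein genes 4 were measured: Trl, which encodes GAGA factor, stood at 0.57, Chro at 0.38, dwg, which encodes Zw5, at -0.30 and CTCF at -0.46. The genes encoding insulator proteins thus lay on both sides of 0.

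**Figure D5:**
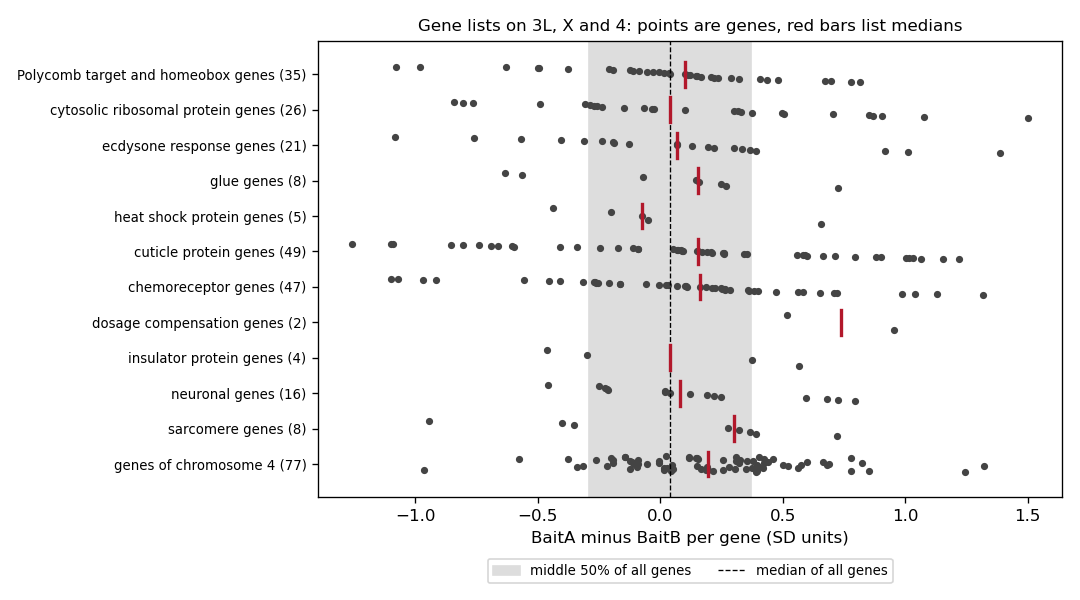
Difference between the BaitA and BaitB arrays (in SDs of an array) per gene for the gene lists on 3L, X and 4, with the number of measured genes in brackets; points are genes, red bars list medians, the grey band the middle 50% of all 4530 genes. Every list of more than 2 genes has members on both sides of 0, and the list medians of those lists lie between -0.08 and 0.30.

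How far the difference repeated within the arrays depended on the arm. Across the 491 bins of 3L the difference in odd and in even 5 kb blocks had a Pearson r of 0.21, and across 25 windows of 1 Mb an r of 0.80. Within the proximal 2 Mb of 3L, r was -0.03 across 40 bins, so the order of single bins in that zone did not repeat between blocks. On X r was 0.04 across 445 bins and -0.10 across 23 windows. On chromosome 4 it was 0.64, and 0.11 without the first bin. The blocks share the array and the restriction fragments at their borders, and these correlations describe the 2 arrays only. The levels themselves repeated better, with r of 0.57 for BaitA and 0.52 for BaitB on 3L and 0.48 and 0.38 on X. On X the pattern common to both baits thus repeated between blocks, and the difference between them did not.

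The profiles of the 2 baits resembled each other across bins, with r of 0.65 on 3L, 0.52 on 3L without its proximal 2 Mb and 0.68 on X. On chromosome 4 it was 0.11, and 0.47 without the first bin. BaitC, which lies on the same arm as BaitA but was not used in the difference, resembled both alike: r was 0.68 with BaitA and 0.68 with BaitB on 3L, and 0.61 and 0.61 on X. The BaitC value averaged 0.04 ± 0.34 over the 10 bins preferred by BaitA and -0.03 over the 2 preferred by BaitB, a contrast of 0.08 within that spread. At 0.3 it was 0.04 ± 0.30 over 76 bins and -0.04 ± 0.23 over 28. These pooled values mix arms of different BaitC level. Arm by arm at 0.3, BaitC averaged -0.01 ± 0.29 and -0.13 ± 0.21 on 3L, and 0.18 ± 0.26 and 0.07 ± 0.22 on X. BaitC was thus higher at the bins preferred by BaitA on both arms, by less than the SD over bins. At 0.5 each arm had only 1 bin preferred by BaitB. All pairs share probes, base composition and the kind of control DNA.

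Few narrow peaks overlapped between the baits, and the overlap that chance gives was not computed. Of the deposited peaks of FDR at most 0.05 on 3L, 448 were from BaitA and 545 from BaitB, and 18 overlapped by at least 1 bp, which is 4.02% of the BaitA and 3.30% of the BaitB peaks. On X 85 overlapped, 9.70% of 876 BaitA and 7.81% of 1088 BaitB peaks. On chromosome 4 1 overlapped, of 34 BaitA and 26 BaitB peaks. BaitA had fewer peaks than BaitB on 3L and X and more on chromosome 4. FDR is the share of false peaks that the authors' software estimated for each array apart, so list lengths are not a measure of contact.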

How the data were processed

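The authors deposited log2 ratios per probe of 4C product over unligated DNA. The base of the logarithm and the centring before deposit are not written in the table, and base 2 is assumed. Coordinates are those of the deposited files. Their build is not named, and the arm lengths in the headers match Release 5. NimbleScan found the peaks of each array, per the file headers, and each deposited peak has a score on the ratio scale and an FDR, which plays the part of a q-value. In a deposited table for each bait, peaks of FDR at most 0.2 are listed with transcripts within 5 kb. Of 17767 accessions there, 16168 matched the RefSeq gene table of Release 6, used for names alone. Only genes in these tables were measured, each by the mean of at least 10 probes in its transcribed span and 1 kb around it.

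Values were centred, scaled, averaged in bins of 50 kb and subtracted with Python 3.11.15, numpy 2.4.6, pandas 2.3.3 and scipy 1.17.1. The binning was tested on simulated data. All value columns belonged to a sample. The members and the gene lists were chosen with earlier results of these data known. The rule for named genes took up to 4 genes of the leading stretches per arm and direction. Only genes whose difference pointed the way of their stretch were eligible, so their agreement with it was set by the rule. It also took the 5 genes of largest difference with at least 20 probes (3 on chromosome 4), the extremes of each list and the bins at the threshold. Genes of single bins past 0.5, of the proximal 3L and of the Iroquois complex were named after their values were seen. Because no stretch passed 0.5, stretches were taken at 0.3. Promoter motifs were not analysed here. Alternatives changed the centring, scaling, bin size, summary, threshold and probes used.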

Additional observations from a re-analysis of the deposited data

How the results depend on the processing

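No paired analysis was possible because each bait had 1 array. The mean differences on 3L and 4 and the proximal contrast on 3L kept their direction under every alternative tried, but the mean on 3L fell from 0.06 to 0.0069 with centring on the bait-free arms. Of the recomputed values, 81 stayed within the spread of bins or, for lengths, within 1.5 times, 45 moved further and 6 changed sign. The fall of the mean on 3L counts among the 81, because the SD over bins is wider than that fall. The mean difference on X, 0.00, turned to -0.052 with centring on the bait-free arms, -0.016 with normal scores of ranks and -0.0005 in odd blocks. The proximal contrast on X turned to -0.055 in even blocks. The BaitC contrast between preferred bins turned to -0.030 in odd and -0.18 in even blocks and was 0.37 at a threshold of 0.6. The length past the threshold depended on nearly every choice, and the cause was not tested. The length preferred by BaitA on 3L, 400 kb, became 250 kb with the other centring, 1560 kb with 20 kb bins, 100 kb with 100 kb bins, 2800 kb with medians of probes, 1600 and 1000 kb in odd and even blocks, and 3150, 1300 and 100 kb at thresholds of 0.3, 0.4 and 0.6. That preferred by BaitB on 3L, 50 kb, became 100 kb with the other centring and with ranks, 860 kb with 20 kb bins, 0 with 100 kb bins, 1500 kb with medians, 350 and 200 kb in odd and even blocks, and 750 and 250 kb at 0.3 and 0.4. On X the length preferred by BaitA, 50 kb, became 0 with the other centring, with ranks, with 100 kb bins, without probes in peaks and at 0.6, 540 kb with 20 kb bins, 100 kb with medians and in odd blocks, 200 kb in even blocks and 350 kb at 0.3. That preferred by BaitB on X, 50 kb, became 0 with 100 kb bins, without probes in peaks and at 0.6, 620 kb with 20 kb bins, 150 kb with medians and in odd blocks, 400 kb in even blocks, and 650 and 100 kb at 0.3 and 0.4. On chromosome 4 the length preferred by BaitA, 50 kb, became 200 kb with 20 kb bins and with medians, 100 kb with 100 kb bins, in odd and in even blocks, and 300 and 150 kb at 0.3 and 0.4. The threshold of 0.3 was chosen after seeing the data.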
